A study of Mus musculus with 15 samples.

Results

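Neuropeptide precursor genes encode the large proteins from which peptide transmitters are cut. The 37 genes described here were taken by name from a list of such precursors and make up 37 of the 21938 protein-coding genes of GENCODE version M21. All 37 were found in that annotation as protein-coding genes. Mice in the study were adult males from the F1 generation of a 129xB6 cross, and histone H3 trimethylated at lysine 4 (H3K4me3) was profiled by chromatin immunoprecipitation and sequencing from 20000 nuclei of the amygdala per reaction. The series held 2 H3K4me3 samples from wild-type (WT) mice, 3 from Kmt2a-HET mice (heterozygous for an H3K4 methyltransferase gene), 3 from Kdm5c-KO mice (lacking an H3K4 demethylase gene), 3 from double mutant (DM) mice that carry both changes, and 1 input sample per genotype. A single file was analysed here, the list of peaks that the authors called on both WT mice together. It therefore had no spread between replicates, no test between samples was possible, and no comparison between genotypes was made. The other samples were not analysed here.

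A neuropeptide is made as a prepropeptide, cut by convertases inside dense-core granules and released to act on G protein-coupled or related receptors. In the brain most precursors are made by small, scattered classes of neurons, and in the amygdala many of these are GABA-releasing interneurons or projection neurons of the central nucleus. H3K4me3 sits on nucleosomes just downstream of the start of active or poised genes and is deposited most readily at promoters rich in CpG. In bulk tissue, a few cells that carry the mark strongly and many cells that carry it weakly cannot be told apart.

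Each line of the WT list gave the 1 bp position of a peak summit and a score, taken here to be the −log10 q-value of MACS2, so that a higher score marks a summit less likely to be background. Chromosomes 1 to 19, X and Y carried 24139 of its 24162 summits, and scores ran from 1.182 to 341.7 with a median of 102. A gene was called marked when a summit lay within 1 kb of any of its transcription start sites (TSSs), and the highest-scoring such summit gave its promoter score. The list gives no peak extents, so an unmarked gene may still lie under a peak whose summit is farther off. Distances are to the nearest annotated TSS of the gene, and the principal TSS, that of the main coding transcript, is named where it lay elsewhere and the difference is large. The score rises with the number of reads as well as with enrichment, and the depth behind single summits is not given by the list. Markers of neurons were marked at 9 of 9 genes (median score 200, from 105 to 284), those of astrocytes at 4 of 4 (median 104), of oligodendrocytes at 4 of 4 (median 122) and of microglia at 4 of 4 (median 18.3), while of 6 markers of other organs 1 was marked, the cardiac troponin gene Tnnt2 with a score of 18.6. These markers identify brain cells and do not separate the amygdala from other brain regions.

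Of the 37 neuropeptide precursor genes, 21 were marked (56.8%, 95% Wilson interval 40.9 to 71.3%), against 14197 of all 21938 protein-coding genes (64.7%, 64.1 to 65.3%). The share was thus near that of coding genes as a whole, whose value lies inside the members' interval. The scores were not near. The 21 marked genes had a median promoter score of 28.7, with quartiles of 15.4 and 49.0, whereas marked coding genes had a median of 195, with quartiles of 130 and 230. The medians differed by 166 score units, and 7.97% of marked coding genes scored below the median of the neuropeptide genes. Of all coding genes, 52.0% had a promoter summit that scored at least the list's median, and of the neuropeptide genes 3 of 37 did (Cck, Nppc and Agrp, the last beside a TSS of another gene). Below that median lay 85.7% of marked neuropeptide genes and 19.6% of marked coding genes. The values of single genes spread from 3.34 at Nmu to 232 at Agrp, and 15 of the 21 fell between 10 and 60.

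**Figure D1:**
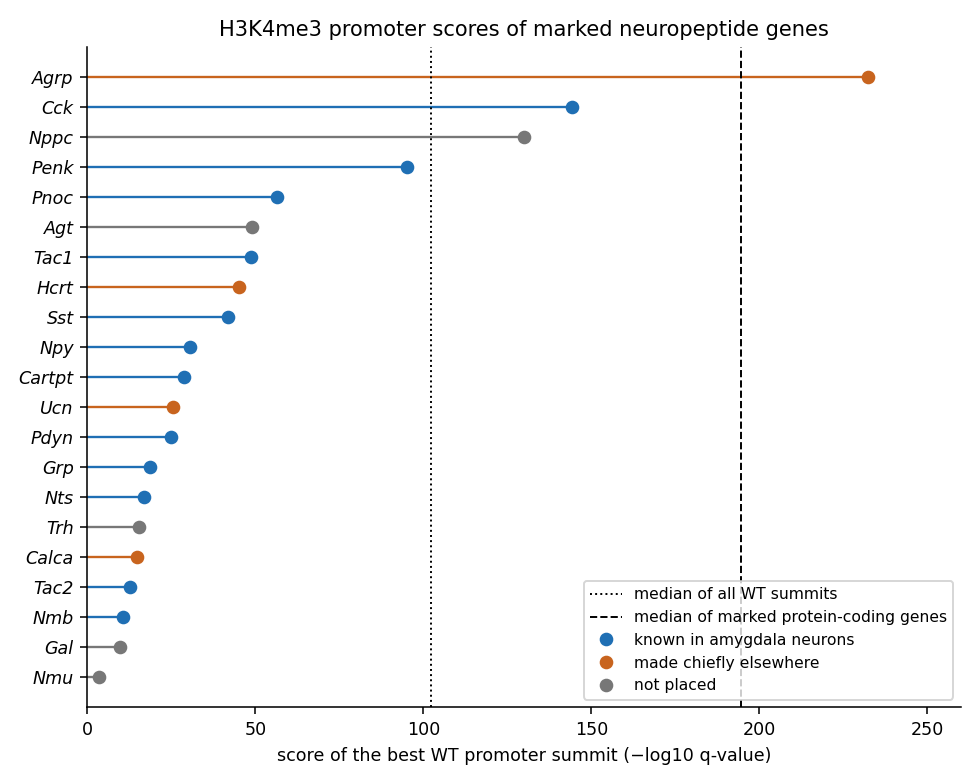
Promoter score (x axis, −log10 q-value of the best WT summit within 1 kb of a TSS) of each of the 21 marked neuropeptide precursor genes (y axis, in order of score), coloured by where the precursor is chiefly made; the dotted line is the median of all WT summits and the dashed line the median of marked protein-coding genes. Agrp, Cck and Nppc lie right of the dotted line, and the other 18 genes lie left of it.

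Sequence just upstream of the TSS is shown for the precursors whose promoters hold a full cAMP response element, for Cck, which had the highest score among genes with a sequence, and for unmarked precursors with a TATA box. RefSeq promoter sequences (GRCm38.p6) were matched for 30 of the 37 genes; Penk, Crh, Grp, Agrp, Pnoc, Calcb and Gnrh1 were not in the table. Each line gives the 150 bases before the RefSeq TSS, 5′ to 3′ on the gene's strand, at chr16:23890845-23890994 (minus) for Sst, chr13:99900684-99900833 (minus) for Cartpt, chr5:31138896-31139045 (minus) for Ucn, chr9:121495695-121495844 (minus) for Cck, chr10:5639068-5639217 (plus) for Vip, chr12:3954795-3954944 (plus) for Pomc, chr10:88090922-88091071 (plus) for Pmch and chr8:84044980-84045129 (minus) for Rln3. Capitals mark TGACGTCA, the cAMP response element, in the first 3 sequences and TATAAA in the last 4.
Sst: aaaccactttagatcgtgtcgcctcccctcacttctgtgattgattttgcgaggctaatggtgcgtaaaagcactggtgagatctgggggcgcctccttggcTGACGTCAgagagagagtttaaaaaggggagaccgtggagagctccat
Cartpt: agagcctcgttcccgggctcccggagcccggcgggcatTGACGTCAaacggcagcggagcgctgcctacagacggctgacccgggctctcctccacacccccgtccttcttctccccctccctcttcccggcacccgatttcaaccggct
Ucn: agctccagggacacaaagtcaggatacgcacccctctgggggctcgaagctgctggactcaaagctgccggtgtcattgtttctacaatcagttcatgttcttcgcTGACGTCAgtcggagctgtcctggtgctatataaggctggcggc
Cck: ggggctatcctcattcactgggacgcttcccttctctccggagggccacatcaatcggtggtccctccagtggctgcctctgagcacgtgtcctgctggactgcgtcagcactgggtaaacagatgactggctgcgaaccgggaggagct
Vip: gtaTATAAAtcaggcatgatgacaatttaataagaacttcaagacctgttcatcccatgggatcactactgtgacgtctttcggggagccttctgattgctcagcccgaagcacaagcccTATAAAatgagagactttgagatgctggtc
Pomc: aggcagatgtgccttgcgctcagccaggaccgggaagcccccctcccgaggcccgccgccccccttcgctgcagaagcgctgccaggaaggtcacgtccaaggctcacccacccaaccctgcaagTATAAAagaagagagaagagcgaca
Pmch: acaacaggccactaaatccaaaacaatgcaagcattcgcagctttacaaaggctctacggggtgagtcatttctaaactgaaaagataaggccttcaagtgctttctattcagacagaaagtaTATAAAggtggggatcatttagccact
Rln3: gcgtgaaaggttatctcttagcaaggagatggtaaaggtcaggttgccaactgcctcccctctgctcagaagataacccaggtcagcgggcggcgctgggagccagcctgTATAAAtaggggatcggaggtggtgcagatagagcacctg

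The cAMP response element binds CREB, and the Sst promoter is where that element is best known. TGACGTCA started 48 bases before the RefSeq TSS of Sst, 112 bases before that of Cartpt and 44 bases before that of Ucn. All 3 genes were marked, as were 21 of the 37 precursors. In windows from 250 bases before to 50 after the RefSeq TSS, searched on both strands, it was found in 3 of 30 neuropeptide genes (10%) and in 2.41% of 16522 genes. In the same windows around the outermost GENCODE TSS it was found in 2 of 37 (5.41%, Crh and Ucn) and in 2.43% of 21938 coding genes. Of these 2, Ucn was marked and Crh was not. Sst and Cartpt drop out of that count because their outermost GENCODE TSSs lie upstream of the RefSeq ones. The shorter element CGTCA, which lies inside TGACGTCA and so is counted wherever the full element occurs, was found in 53.3% of the 30 RefSeq windows against 24.4% of all, and in 40.5% of the 37 GENCODE windows against 23.1%.

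TATAAA, the core of the TATA box that positions RNA polymerase at focused promoters, was present in 8 of 30 RefSeq windows (26.7%, against 12.8% of all) and in 11 of 37 GENCODE windows (29.7%, against 12.6%). Its last copy began 30 bases before the TSS in Vip, 25 in Pomc, 27 in Pmch and 40 in Rln3, the unmarked genes printed above. It began 33 bases before the TSS in Hcrt, 30 in Agt and 29 in Nppc, which were marked, and 9 bases before it in Nppa, which was not. The box thus occurred in both marked and unmarked precursors. Of the 11 with TATAAA in the GENCODE window 5 were marked, and of the 8 with it in the RefSeq window 3 were. Of all 37 precursors, 56.8% were marked. The marked share of all coding genes with TATAAA was not computed. GGGCGG, a binding site of Sp1 common in CpG-rich promoters, was found in 27.0% of the GENCODE windows of neuropeptide genes and 43.0% of all. In RefSeq windows it was found in 36.7% and 48.0%. CCAAT was found in 45.9% and 39.0% of the GENCODE windows, but in 36.7% and 38.8% of the RefSeq ones. Its direction thus depended on which TSSs were used. A match to these letters is a description of the sequence and does not show that a factor was bound.

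Among precursors known in amygdala neurons, Cck had the highest score. Cck (ENSMUSG00000032532, chr9:121489824-121495694, minus strand) encodes cholecystokinin, which is made in a class of basket interneurons and in projection neurons. Its summit at 121494375 scored 144, above 58.2% of the list, and lay in the coding part of exon 2, 135 bp downstream of an internal TSS and 1319 bp from the principal one. Another summit at 121492030 in intron 2 scored 8.38. The strong Cck summit therefore lay away from the TSS whose upstream sequence is printed above.

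Somatostatin and neuropeptide Y are released by overlapping sets of dendrite-targeting interneurons. Sst (ENSMUSG00000004366, chr16:23889573-23890958, minus strand) had a summit at 23890626 with a score of 41.9, 332 bp downstream of its TSS in the coding part of exon 1. Npy (chr6:49822710-49829507, plus strand) had one at 49822652 with a score of 30.7, 58 bp upstream of the TSS. Both scores are below the median of the list, above 37.4% and 33.7% of its summits. Cort, the relative of Sst that encodes cortistatin, was unmarked, with the nearest summit 10438 bp away at the Cenps promoter.

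Vip, which encodes vasoactive intestinal peptide and marks interneurons that inhibit other interneurons, was unmarked. Of all 37 genes it had the longest distance to a summit, 88758 bp, and that summit lay at a TSS of Syne1. The related Adcyap1 (chr17:93199017-93206537, plus strand), which encodes the stress-related peptide PACAP, was unmarked by 20 bp. A summit in its intron 2 at 93200955 scored 85.9 and lay 1020 bp from the nearest GENCODE TSS. When RefSeq TSSs were added, the same summit lay 793 bp downstream of one and Adcyap1 was marked. With Ghrh, whose nearest summit lay 20422 bp away at the Manbal promoter, the 3 precursors of the PACAP and VIP family had no promoter summit under GENCODE.

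The opioid precursors were marked at 3 of 4 genes. Penk (chr4:4133531-4138819, minus strand), which encodes the enkephalins of central amygdala neurons, scored 95.1 at a summit at 4137981 in intron 1, 496 bp downstream of its TSS and 340 bp from the TSS of A830012C17Rik. Pnoc (chr14:65400673-65425472, minus strand), the precursor of nociceptin, scored 56.4 at 65425064 in intron 1, 96 bp from the nearest TSS and 408 bp from the principal one, and had a weak summit of 2.096 in intron 3. Pdyn (chr2:129686565-129699844, minus strand), the dynorphin precursor, scored 25.02 at 129699625 in intron 1, 208 bp from the TSS. The order Penk, Pnoc, Pdyn carries no error, since the list gives 1 value per gene.

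Pomc (chr12:3954951-3960642, plus strand), the precursor of ACTH and β-endorphin made in the pituitary and the arcuate nucleus, was the opioid gene without a promoter summit. It did hold a summit, at 3960186 in the coding part of exon 3, 5216 bp downstream of the nearest Pomc TSS and with no TSS of another gene within 1 kb. That summit scored 191, higher than every promoter score of the 37 genes other than Agrp. The TATAAA of the Pomc promoter printed above was thus not accompanied by a summit within 1 kb.

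Both tachykinin genes were marked. Tac1 (chr6:7554879-7565834, plus strand), which encodes substance P and neurokinin A, scored 48.7 at 7555218 in intron 1, 122 bp from an internal TSS and 339 bp from the principal one. Tac2 (chr10:127724478-127731768, plus strand), which encodes neurokinin B, scored 12.7 at 127726166 in intron 2, 762 bp downstream of a TSS. Of the pair, Tac1 kept its call in a window of 500 bp and at the outermost TSS, and Tac2 kept it in neither.

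The bombesin-like genes were both weakly marked in the coding part of exon 1. Grp, which encodes gastrin-releasing peptide and is used by amygdala projection neurons, scored 18.6 at a summit 138 bp from its nearest TSS and 594 bp from the principal one. Nmb (chr7:80902227-80905076, minus strand), the neuromedin B precursor, scored 10.7 at a summit 140 bp from its TSS. Another peptide of central amygdala neurons, neurotensin, is encoded by Nts (chr10:102481756-102490486, minus strand), which scored 16.8 in the 5′ UTR of exon 1, 122 bp from the TSS. All 3 scores were below the lower quartile of marked coding genes, 130.

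The corticotropin-releasing factor (CRF) family was marked at 1 of 3 genes. Crh (chr3:19693401-19695396, minus strand), which encodes CRF, the peptide that starts the stress response and is made in the central amygdala, missed the window by 112 bp. Its summit at 19694284, in the coding part of exon 2, lay 1112 bp from the nearest TSS and scored 49.2, above the scores of 16 marked precursors. Ucn (chr5:31138063-31138829, minus strand), which encodes urocortin 1 and is made chiefly in the midbrain, was marked with a score of 25.6 at 31138234 in the coding part of exon 2, 595 bp from its TSS and 890 bp from that of Gm15469. Ucn3 was unmarked, and its nearest summit lay 27322 bp away at the Net1 promoter.

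The neurohypophysial hormones oxytocin and vasopressin are made chiefly, though not only, in hypothalamic neurons that send axons to the amygdala. Their genes Oxt and Avp, which lie 3565 bp apart, were both unmarked and shared a nearest summit, which lay 447 bp from a TSS of the antisense gene 4930473A02Rik, 11977 bp from Oxt and 18358 bp from Avp. Of the peptides of hypothalamic feeding and arousal neurons, Pmch, which encodes melanin-concentrating hormone, was unmarked, with its nearest summit 56096 bp away at Nup37. Hcrt (chr11:100761069-100762931, minus strand), the orexin precursor of the lateral hypothalamus, was marked with a score of 45.3 at 100762120 in the coding part of exon 2, 808 bp from the TSS. Cartpt (chr13:99898489-99901091, minus strand), which encodes the CART peptides and is also made in the central amygdala, scored 28.7 at 99900460 in intron 1, 181 bp from the nearest TSS and 631 bp from the principal one.

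Agrp, the agouti-related peptide gene of the arcuate nucleus, had the highest score of the 37 genes, 232, above 87.6% of the list. The summit at 105637162 on chromosome 8 lay 231 bp from the TSS of the long transcript Agrp-202, but 68864 bp upstream of the principal Agrp TSS at 105568298. It lay 96 bp from a TSS of Ctcf, which encodes the insulator protein CTCF. In a window of 3 kb, the Agrp score became 250 at a summit 322 bp from a TSS of Atp6v0d1. No summit lay within 1 kb of the principal Agrp TSS, and without Agrp 20 of 36 genes were marked with a median score of 27.1.

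The group of Trh, Gnrh1 and Kiss1, for releasing hormones and kisspeptin, was marked at 1 of 3 genes. Crh and Ghrh, also genes of releasing hormones, were counted in other families above and were unmarked. Trh (chr6:92242061-92244650, minus strand), which encodes thyrotropin-releasing hormone, scored 15.4 at 92244506 in intron 1, 144 bp from the TSS. Gnrh1, which encodes gonadotropin-releasing hormone, and Kiss1, which encodes the kisspeptin that drives its release, were both unmarked. Their nearest summits lay 28683 bp and 36614 bp away, at the promoters of Kctd9 and Etnk2.

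Galanin, encoded by Gal (chr19:3409915-3414544, minus strand), had 2 promoter summits, and of the 37 genes it was the one with more than 1, against 11.7% of coding genes with 2 or more. They scored 9.69 at 3414300 in intron 1, 147 bp from the nearest TSS and 244 bp from the principal one, and 3.19 at 3413630 in intron 2. They lay 670 bp apart, so Gal had 1 summit when summits within 1 kb of each other were joined, and the total over the genes went from 22 to 21. Nmu (chr5:76333495-76363788, minus strand), which encodes neuromedin U, had the lowest score, 3.34, at 76363845, 57 bp upstream of the TSS and above 2.57% of the list. Its relative Nms, a peptide of the suprachiasmatic nucleus, was unmarked, with a summit 41281 bp away at Chst10. Rln3, which encodes relaxin-3 of the brainstem, was unmarked, and its nearest summit, 2604 bp away with a score of 22.2, lay 144 bp from a TSS of Il27ra.

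Among peptides with large roles outside neurons, Nppc (chr1:86666291-86670571, minus strand) and Agt (chr8:124556534-124569706, minus strand) were marked. Nppc, which encodes C-type natriuretic peptide, scored 130 at 86670403 in the coding part of exon 1, 168 bp from the TSS. Agt, which encodes angiotensinogen and is made by astrocytes in the brain, scored 49.0 at 124569551 in intron 1, 155 bp from the TSS. Nppa, the atrial peptide of heart muscle, was unmarked, and the nearest summit, 37901 bp away with a score of 9.36, had no TSS within 1 kb. Calca (chr7:114631478-114636357, minus strand), which encodes calcitonin and its gene-related peptide, scored 14.8 at 114636225 in the 5′ UTR, 46 bp from the nearest TSS and 132 bp from the principal one. Its neighbour Calcb, 82285 bp away, was unmarked, with a summit 26301 bp off at Insc. Of the 12 groups with 2 or more members, 8 held marked and unmarked genes side by side. Most of these groups are peptide families, but the releasing hormones and the feeding and arousal peptides were grouped by role. With 56.8% of all 37 genes marked, mixed groups are common under any grouping, and no baseline was computed.

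Summits of marked genes lay mostly just downstream of the TSS, as in coding genes at large. The best summit lay downstream of the nearest TSS in 19 of 21 genes and upstream in Npy and Nmu, and the median signed offset over all 21 was 147 bp. For marked coding genes the median offset was 171 bp, with quartiles of 49.0 and 327 bp, and 79.3% were downstream. With the outermost TSS alone, the medians were 231 bp for the neuropeptide genes and 276 bp for coding genes. In 14 genes the summit lay within 250 bp downstream, and in Sst, Penk, Ucn, Tac2 and Hcrt it lay farther on. In 7 of the 21 (33.3%: Sst, Cck, Nmb, Grp, Hcrt, Ucn and Nppc) it fell in coding sequence of the gene itself, as it did in 16.6% of marked coding genes. Neuropeptide genes are short, with a median length of 4880 bp against 17425 bp for coding genes, and 9 were under 2 kb long.

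The 16 unmarked genes fell into distinct cases. For 12 of them the nearest summit lay within 1 kb of a TSS of another gene, for Crh, Adcyap1 and Pomc it lay inside the gene, and for Nppa it lay at neither. It was over 10 kb away for 12 of the 16. The matching shares over all unmarked coding genes were not computed, so these counts describe the 16 genes and do not set them apart. The median distance was 23362 bp, against 60139 bp for the 7741 unmarked coding genes. Crh and Adcyap1 lay within 250 bp past the edge of the window, where 2.11% of unmarked coding genes lay. A window of 500 bp left 18 genes marked (57.1% of coding genes) and lost Tac2, Hcrt and Ucn. A window of 3 kb gave 24 (67.1% of coding genes) and added Crh, Adcyap1 and Rln3. With the outermost TSS of each gene alone, 19 were marked (58.2% of coding genes), without Cck and Tac2.

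**Figure D2:**
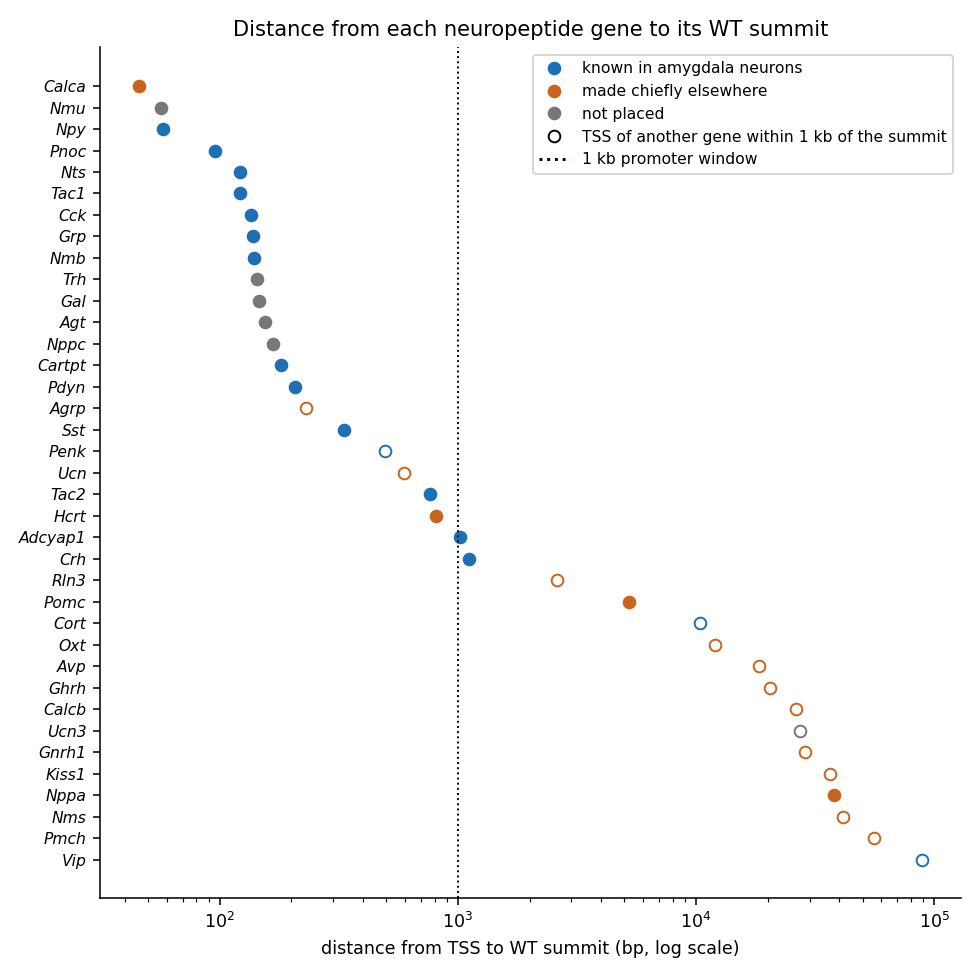
Distance in bp on a log scale (x axis) from the nearest TSS of each of the 37 neuropeptide precursor genes (y axis) to its best promoter summit or, where it had none, to the nearest WT summit; colours give where the precursor is chiefly made, open circles are summits with a TSS of another gene within 1 kb, and the dotted line is the 1 kb window. Adcyap1 and Crh lie just right of the line, and most genes farther right are open circles.

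The genes were also sorted by where each peptide is known to be made. Of 16 precursors known in amygdala neurons, 12 were marked (75%, Wilson interval 50.5 to 89.8%) with a median score of 29.7, and Vip, Crh, Cort and Adcyap1 were not. The 64.7% of all coding genes lies inside that interval. Of 15 made chiefly elsewhere, such as the hypothalamus, midbrain, pituitary or heart, 4 were marked (26.7%, 10.9 to 52.0%): Hcrt, Agrp, Ucn and Calca. That interval lies below the 64.7% of coding genes. Of 6 placed in neither class, 5 were marked (83.3%), with Ucn3 the exception. The intervals of the first 2 classes overlap between 50.5 and 52.0%, and the 4 marked genes made chiefly elsewhere had a median score of 35.5, above that of the first class. Without Agrp and the summit it shares with Ctcf, 3 of these remained, at 45.3, 25.6 and 14.8, and their median of 25.6 was below the 29.7 of the first class. These classes come from general knowledge of the peptides and were chosen with earlier results of these data known. No test was made of them. The intervals cover counting error only, so their place relative to 64.7% or to each other is a description and not a test.

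The promoters were also poorer in CpG than those of coding genes as a whole. In the 500 bp on each side of a gene's outermost TSS, the ratio of observed over expected CpG had a median of 0.404 over the 37 genes and 0.552 over coding genes. Marked neuropeptide genes had a median of 0.482 and marked coding genes 0.706. Unmarked neuropeptide genes had a median of 0.376, against 0.176 for unmarked coding genes, so marked and unmarked members lay closer together than marked and unmarked genes in general.

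Within classes of like CpG content at the outermost TSS, the marked share went either way and the scores were lower throughout. Of 6 neuropeptide genes with a ratio of at least 0.6, all 6 were marked (95.5% of coding genes), with a median score of 71.9 against 206. Agrp was among them, with a ratio of 0.908 and a score of 232 at the summit beside a TSS of Ctcf. The others scored 28.7 at Cartpt, 30.7 at Npy, 48.7 at Tac1, 95.1 at Penk and 130 at Nppc. Of 19 genes from 0.3 to 0.6, 9 were marked (47.4%, against 71.1%), with medians of 15.4 and 162. Of 12 genes below 0.3, 6 were marked (50%, against 17.9%), with medians of 31.9 and 109. Cck, Tac2, Nts, Grp, Hcrt and Agt were the marked genes of the last class. The classes were set at the outermost TSS, whereas a summit near any TSS counted as a mark. At their summits Cck, Hcrt and Grp had ratios of 0.685, 0.539 and 0.513, and Tac2, Nts and Agt had 0.186, 0.101 and 0.0977. Cck and Tac2 were not marked at the outermost TSS alone. The share of 50% is therefore not one of summits in CpG-poor sequence.

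CpG content at the summit was also set against that at the outermost TSS, and a few marked genes differed widely. With the outermost TSS alone, the median offset of the summit was 231 bp. Windows that close share most of their bases, so like values at such genes are largely built in and are not a finding. The ratio in the 500 bp on each side of the summit was within 0.05 of that at the TSS in 12 of 21 marked genes, higher by more than 0.05 in 7 and lower by more than 0.05 in 2. Of marked coding genes, 25.2% were higher and 30.2% lower by that margin, which was chosen after the values were seen. Cck had 0.685 at its summit and 0.260 at the outermost TSS, Hcrt had 0.539 and 0.182, and Crh had 0.757 and 0.396. Each of these summits lay in a coding exon. Penk went the other way, with 0.400 at its summit and 0.796 at the TSS. These genes were picked after their values were seen. Across the 21 marked genes the median at the summit was 0.520, below the 0.572 of the 2781 marked coding genes whose score was under the median of the list and the 0.697 of all marked coding genes.

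**Figure D3:**
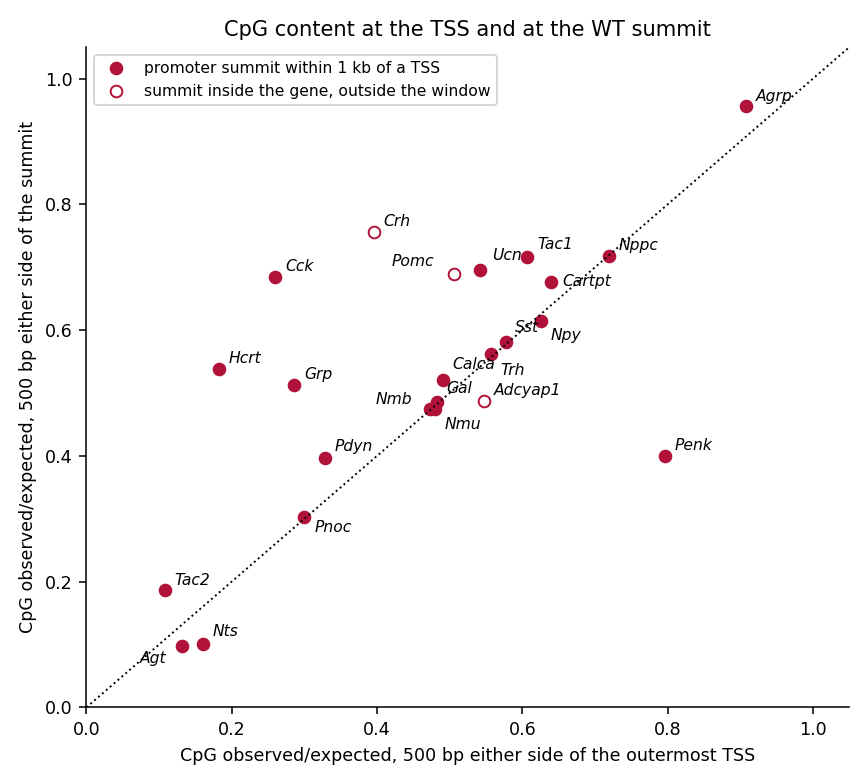
Ratio of observed over expected CpG in the 500 bp on each side of a gene's outermost TSS (x axis) and of its WT summit (y axis) for the 21 marked neuropeptide genes (filled) and the 3 genes with a summit inside the gene but outside the window (open); the dotted line marks equal values. Cck, Hcrt, Grp and Crh lie farthest above the line and Penk below it.

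The genes that process and sense the peptides were read from the same list. Of 16 genes for processing enzymes and granule proteins, which peptide neurons use whatever peptide they make, 14 were marked (87.5%, Wilson interval 64.0 to 96.5%) with a median score of 210 and a range of 154 to 240. All 14 lay above the median of the list. The unmarked genes were Pcsk2, which encodes a prohormone convertase, and Cadps, which encodes a factor for granule release. Unmarked means no summit within 1 kb, and whether a peak covered these promoters was not tested. Of 53 neuropeptide receptor genes, 43 were marked (81.1%, 68.6 to 89.4%), with a median of 68.6, a range of 2.84 to 263 and 18 that reached the list's median. Marked precursors scored lowest of the 3 groups, at a median of 28.7, and the receptors lay between them and the processing genes. Receptor scores spread widely. Adcyap1r1, the PACAP receptor gene, scored 250 and Nmbr, the neuromedin B receptor gene, 263, while Grpr, the receptor gene for gastrin-releasing peptide, scored 2.84. Of their ligand genes, Adcyap1 was unmarked, Nmb scored 10.7 and Grp 18.6. Adcyap1 missed the window by 20 bp, with a summit of 85.9, and was marked when RefSeq TSSs were added. The Nmbr summit lay upstream of the TSS, at an offset of -313 bp. TSSs of other genes near the receptor summits were not looked for, as they were for the precursors.

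**Figure D4:**
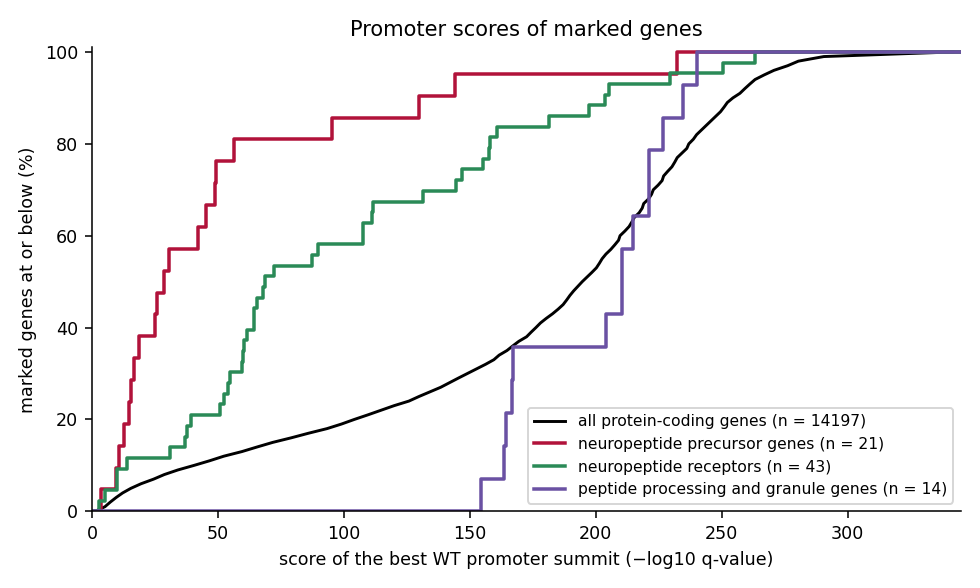
Cumulative share of marked genes in percent (y axis) at or below each promoter score (x axis, −log10 q-value of the best WT summit) for neuropeptide precursor genes, their receptors, peptide processing and granule genes and all protein-coding genes. The precursor curve rises first, with 18 of 21 genes below the list median of 102, and the processing genes start at 154.

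**Figure D5:**
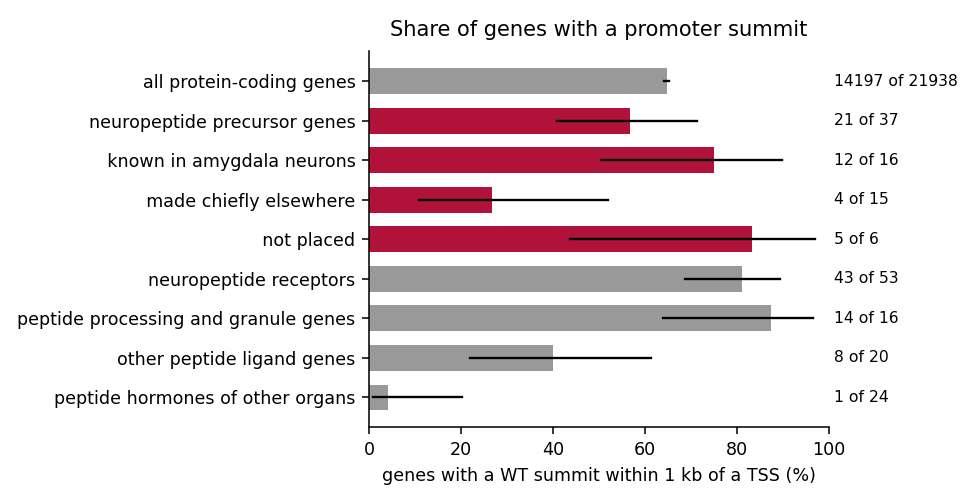
Percent of genes with a WT summit within 1 kb of a TSS (x axis) in each gene list (y axis), with bars for the share, lines for 95% Wilson intervals and counts at the right. The 3 classes of precursors by where they are made are in the same red as the precursors as a whole, and peptide hormones of other organs, at 1 of 24, have the lowest share.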

How the data were processed

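The series held 11 H3K4me3 samples and 4 inputs. Per the labels and the study's methods, the authors used Bowtie to align reads to mm10 and MACS2 2.1.0.20140616 to call peaks against input. The WT mice were pooled in 1 deposited list, each line a summit with a score taken here as a −log10 q-value. That reading rests on the lowest value, 1.182, and on what MACS2 writes for summits. Summits outside chromosomes 1 to 19, X and Y were left out. The rest were joined to TSSs of GENCODE M21 (GRCm38) within 1 kb. Where no summit lay there, the nearest one was taken. All 37 genes are accounted for. Related lists are given by counts, medians and ranges, and promoter sequences were limited to 8, none on chromosome 18. The genes, lists and CpG classes were chosen with earlier results of these data known. Shares have 95% Wilson intervals, which cover counting error only. No p-value is given, since genes of 1 list are not replicates. The join was tested on simulated data. Python 3.11.15, numpy 2.4.6, scipy 1.17.1 and matplotlib 3.10.9 were used. Alternatives changed the window, the TSSs, the score threshold and the joining of summits.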

Additional observations from a re-analysis of the deposited data

How the results depend on the processing

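The count of 21 marked genes stayed between 18 and 24 under every alternative but 1. It was 18 with 500 bp, 24 with 3 kb, 19 with the outermost TSS, 21 with TSSs of protein-coding transcripts, and 21 with summits within 1 kb joined. With summits that scored at least the list's median, 3 genes and 3 summits remained, with a median score of 144 and a median offset of 168 bp. The median score of 28.7 moved to 29.7 with 500 bp, with 3 kb and with RefSeq TSSs added, and to 27.1 without Agrp. The median offset of 147 bp moved to 142 bp with 500 bp, 162 bp with 3 kb, 231 bp with the outermost TSS, 168 bp with protein-coding transcripts and 151 bp with RefSeq TSSs. The median CpG ratio of 0.404 was 0.435 in 250 bp either side. The cause of these shifts was not tested beyond the genes gained or lost. The alternatives with RefSeq TSSs, with RefSeq promoter windows and without Agrp were chosen after the data were seen. No replicate could be left out, and depth behind single scores is unknown. No paired analysis was possible because the list pools both WT mice and holds no other genotype.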

Other observations

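Of 24 genes for peptide hormones of other organs, such as insulin, glucagon and the pituitary glycoprotein hormones, 1 was marked (4.17%, 95% Wilson interval 0.739 to 20.2%). It was Sct, which encodes secretin, with a score of 36.4 at a summit 7 bp from a TSS. Of 20 other peptide ligand genes, 8 were marked (40.0%, 21.9 to 61.3%) with a median score of 43.7. The highest was Nucb2, which encodes the nesfatin-1 precursor, at 261, and the lowest was Npb, which encodes neuropeptide B, at 4.42. Apln, which encodes the vascular peptide apelin, scored 50.6, and Prok2, which encodes prokineticin 2, scored 36.7. Nps, the neuropeptide S gene of the brainstem, and Npff, which encodes the peptide FF precursor, were among the 12 unmarked. Genes named here were picked after their values were seen.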
